A study of Mus musculus with 6 samples.

Results

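Proteasome subunit genes were measured on 1-colour Agilent microarrays in the inguinal fat, a subcutaneous depot, of C57BL/6J males. They were taken as all genes on the array whose name begins with Psma, Psmb, Psmc, Psmd, Psme, Psmf or Psmg followed by a number, except Psmb8, Psmb9, Psme1 and Psme2, which code for subunits induced by interferon and are described beside them. This held for 45 of the 34844 gene names on the array, measured by 55 of its 55681 probes. The names fit proteasome roles except for Psmc3ip, which matches by its letters but codes for a partner of meiotic recombinases, not a proteasome subunit; it was kept in the counts.

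The proteasome degrades proteins that carry chains of ubiquitin. Its barrel, the 20S core, is built of outer rings of alpha subunits (Psma genes) and inner rings of beta subunits (Psmb genes), and Psmb5, Psmb6 and Psmb7 hold the standard active sites. The 19S particle that caps it has a base, whose ATPases (Psmc genes) unfold the substrate, and a lid (Psmd genes), in which Psmd14 removes ubiquitin. Dedicated chaperones assemble both parts. The transcription factor Nfe2l1 raises the subunit genes together when proteasome capacity is short, and in brown fat it is known for sustaining that capacity in the cold.

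Each of the 2 groups had 3 arrays, 1 for each sample. In the group titled DIO_CR_WR, mice 2 months old ate a fatty diet (60% of energy from fat) for 1 month, were calorie-restricted for about 3 weeks, down to the weight of age-matched animals on chow, and then regained weight on the fatty diet. The group titled DIO ate chow until that last period and then the same fatty diet, so both groups were eating it when the fat was taken; the labels name no transgene or mutation. In the protocol text the regained-weight mice are called DIO and the comparison mice CTR, and the files of the samples titled DIO are likewise named CTR. Group names here are those of the sample titles, and the diet history given for the samples titled DIO rests on this match of names. The labelled age goes up by 1 month with each sample, from 6 to 8 months in DIO and from 9 to 11 months in DIO_CR_WR, with no overlap between the groups. Such even steps in sample order leave it in doubt whether these are the animals' ages. The labels do not say whether a sample is 1 mouse or a pool, and the p-values measure only the spread between these samples.

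Array 1 of DIO and all 3 DIO_CR_WR arrays lay on slide 1, and DIO arrays 2 and 3 on slide 2. The signal at the 75th percentile ranged between 4605 and 4991 for DIO and between 6050 and 7126 for DIO_CR_WR, and 68.2% to 79.2% against 51.6% to 65.7% of probes were well above background. All 10 adipocyte markers were above background on all 6 arrays, and the log2 of their summed level was 7.53 to 7.78 in DIO and 7.34 to 7.59 in DIO_CR_WR, with 3 lower. Skeletal muscle markers were also present, 9 of 9 above background on all arrays and 3 of 9 lower, with a log2 summed level of 7.20 to 7.51 in DIO and 6.73 to 6.96 in DIO_CR_WR. The 7 T cell markers, all above background on every array, ran the other way, with 4 higher and sums of -0.41 to 0.63 against 0.47 to 1.40. All 4 endothelial markers were above background on every array and 2 were higher, with sums of 2.99 to 3.27 in DIO and 3.28 to 3.36 in DIO_CR_WR. Of 7 macrophage markers, all above background on every array, 2 were higher, with overlapping sums of 5.58 to 6.21 and 5.72 to 6.00. Of 3 B cell markers tested 1 was higher, as was 1 of 5 fibroblast and progenitor markers. Brown adipocyte and skin markers had 0 in either direction. Lower and higher markers are those with an unadjusted p under 0.05 in limma's test, which 21.6% and 5.42% of all genes reached. The part of brightness and of these cell types in the results below was not tested. In bulk tissue, fewer cells of a type and less RNA per cell cannot be told apart.

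The median proteasome gene was lower in DIO_CR_WR than in DIO when arrays were scaled to their 75th percentile and higher when they were scaled to spike-in probes, and no single gene passed the test over all genes. Of the 45 genes, 44 were tested, and 43 of these were above background on all 6 arrays. The remaining gene, Psmb11, a thymus subunit, was above background on 2 DIO arrays and no DIO_CR_WR array. In limma's model with Benjamini-Hochberg adjustment over 26177 genes, 0 genes had an adjusted p under 0.05 (0% called), and the smallest was 0.108. At an unadjusted p under 0.05, 15 of the 44 proteasome genes (34.1%) were lower, against 21.6% of all genes tested, and 0 were higher, against 5.42%. These shares depended on the filter on dim probes. With no filter, 10 of 45 (22.2%) were lower, against 13.7% of all genes, and 0 higher, against 11.9%. With signal required on all 6 arrays, 16 of 43 (37.2%) were lower, against 20.7%, and 0 higher, against 7.59%. For 23 of the 44 (52.3%) every DIO_CR_WR array lay below every DIO array, against 26.5% of all genes; the reverse held for 0, against 7.25%.

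The median log2 fold change (DIO_CR_WR relative to DIO) of the 44 genes was -0.26, and that of all genes was -0.20. The spread went from -0.82 for Psma6 to 0.23 for Psmg2, and 37 of the 44 (84.1%) lay below 0, as did 66.3% of all genes. Relative to the shift of all genes the balance was smaller, with 27 of 44 below the median of all genes. On single arrays, the median deviation of the proteasome genes from their means, less that of all genes, was 0.051, 0.040 and 0.016 on the DIO arrays. It was -0.056, -0.13 and 0.013 for DIO_CR_WR. Array 3 of DIO_CR_WR came close to the DIO arrays, and array 2 lay furthest from them.

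Single arrays moved the count of lower genes. It was 17 without DIO array 1 (38.6%, and 28.7% of all genes), 3 without DIO array 2 (6.82%, and 9.15% of all genes) and 6 without DIO array 3 (13.6%, and 14.5% of all genes). It was 6 without DIO_CR_WR array 1 (13.6%, and 13.4% of all genes), 4 without array 2 (9.09%, and 13.7%) and 11 without array 3 (25.0%, and 19.8%). The proteasome share was thus below that of all genes in 3 of these 6 fits. Psma2, Psma6 and Psmd7 were lower in all 6 of these fits, and the share of all genes that were so was not computed. Without DIO array 1, 4057 genes (15.5%) had an adjusted p under 0.05 in limma's test, among them 7 of the 44 of the proteasome (15.9%), a share near that of all genes: Psma6, Psma7, Psmb4, Psmb5, Psmc1, Psmc3 and Psmd7. The other DIO arrays then both lie on slide 2 and all DIO_CR_WR arrays on slide 1, so slide and group cannot be told apart in that fit.

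**Figure D1:**
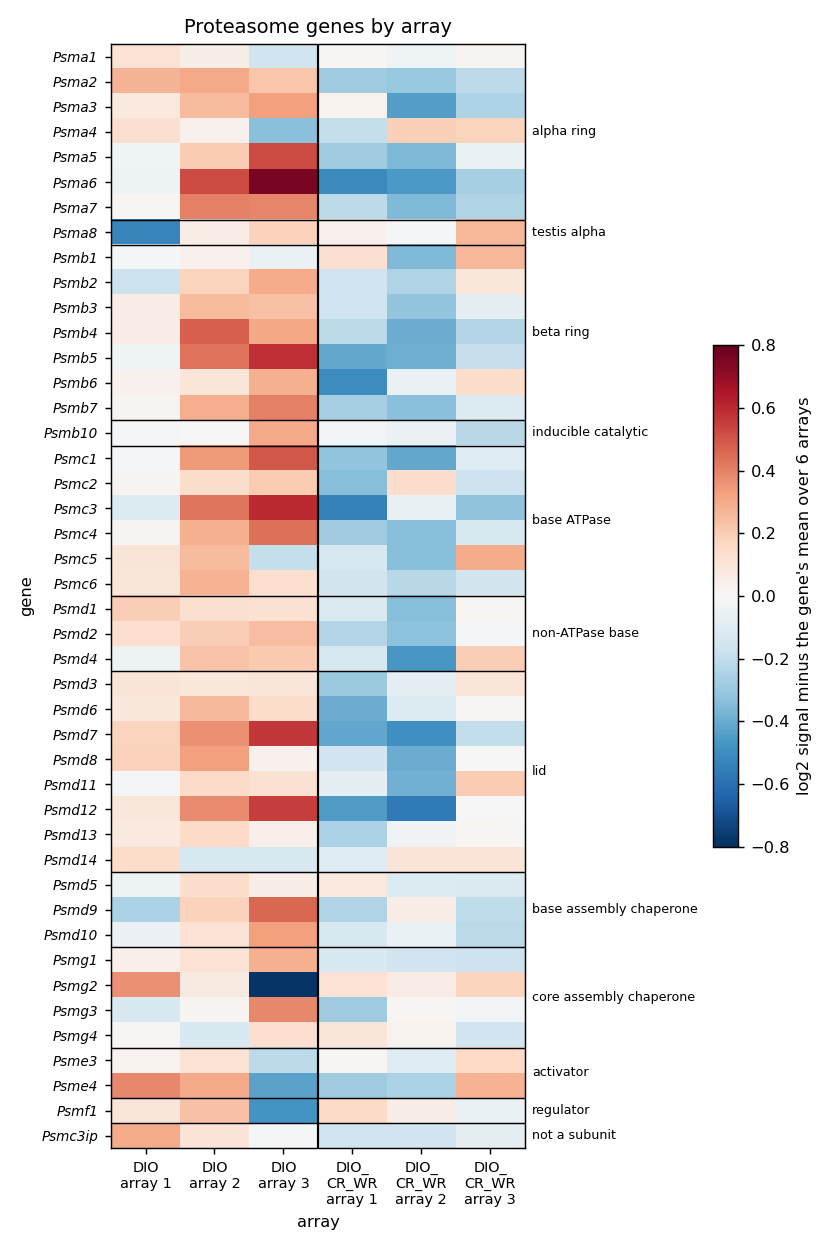
Signal of the 44 tested proteasome genes (rows, grouped by role) on the 6 arrays (columns). Colour is the log2 signal above the array's 75th percentile minus the gene's mean over the 6 arrays. DIO arrays 2 and 3 are red in most rows of the core and the 19S particle, DIO array 1 is pale, and the DIO_CR_WR arrays are mostly blue.

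The sign of the family's median depended on how the arrays were scaled. Quantile normalization gave a median of -0.063 for the proteasome genes and -0.075 for all genes, with 2 genes lower, Psma6 and Psmd7 (4.55%, and 14.1% of all genes). With normexp background correction before it the medians were -0.054 and -0.066, and the 2 lower genes were Psma6 and Psmb5 (4.55%, and 15.4% of all genes). Centring on each array's median left 9 lower (20.5%, and 15.2% of all genes). Scaling to the E1A spike-in probes, RNA added in fixed amount to each labelling, gave 0.23 for the proteasome genes against 0.30 for all genes, with 0 lower, against 2.95% of all genes, and 1 higher, Psma8 (2.27%, and 21.0% of all genes). The share of lower calls among all genes' calls was 79.9% with the 75th percentile, 66.4% with quantile normalization, 66.3% with normexp and quantile normalization, 68.7% with the median and 12.3% with the spike-ins. The proteasome median less that of all genes was -0.068 with the 75th percentile, the median and the spike-ins alike, since these move all genes together, and 0.012 with both quantile settings.

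**Figure D2:**
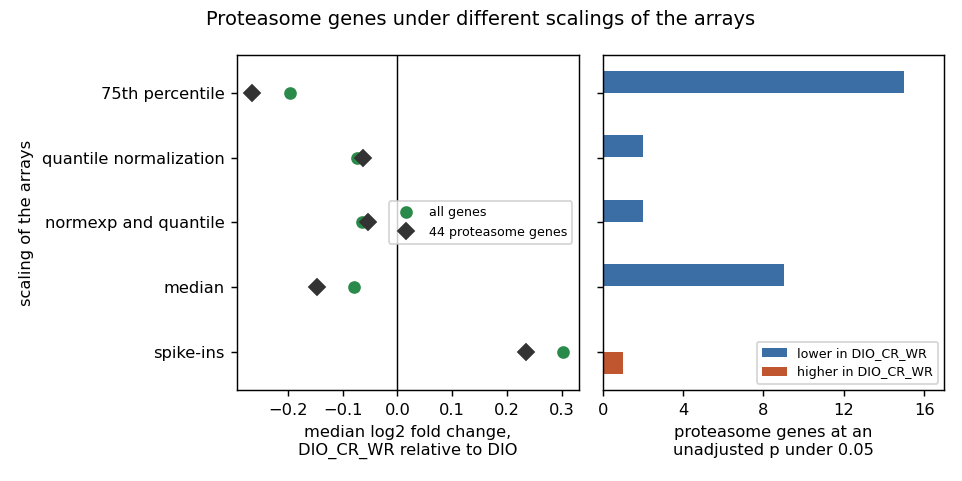
Left, median log2 fold change of the 44 proteasome genes (diamonds) and of all genes (circles) under each scaling of the arrays. Right, number of proteasome genes at an unadjusted p under 0.05 in each direction: 15 lower with the 75th percentile and 0 lower, 1 higher with the spike-ins.

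The counts also changed with the slide. With slide as a block, which takes the group difference from slide 1 alone, 2 of the 44 genes (4.55%) were lower, Psma2 and Psmd7, against 5.88% of all genes. The single higher gene was Psma8, against 4.66% of all genes. The median of the 44 was -0.20 and that of all genes -0.10, and 39 of the 44 (88.6%) were below 0, as were 60.2% of all genes. DIO array 1, the only DIO array on slide 1, was the lowest DIO array for 28 of the 44 genes (63.6%, and 58.1% of all genes). It still lay above all 3 DIO_CR_WR arrays for 28 of the 44, against 39.3% of all genes, and below all 3 for 2, against 23.0%. With the labelled age as a covariate 10 genes were lower (22.7%, and 19.5% of all genes).

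Within the 20S core, 8 of the 14 standard subunits (57.1%) were lower at an unadjusted p under 0.05, against 21.6% of all genes. For 9 (64.3%) every DIO_CR_WR array lay below every DIO array, against 26.5% of all genes. Of all genes with a mean level of at least 3 (log2 above the 75th percentile), 37.0% were lower. The core's median log2 fold change was -0.45 (0.048 with the spike-ins, -0.11 with quantile normalization and -0.25 with slide as a block). In the alpha ring, which gates entry to the barrel, 4 of 7 genes (57.1%) were lower: Psma2, Psma3, Psma6 and Psma7. Levels below are log2 processed signal above the array's 75th percentile, and errors of fold changes are the model's standard errors (SE).

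Psma6 (NM_011968, probe at chr12:56511127-56511186 of mm9) measured 3.67, 4.24 and 4.48 in DIO (arrays 1, 2 and 3, the order used throughout) against 3.21, 3.26 and 3.45 in DIO_CR_WR. The groups did not overlap, and DIO array 1 lay closer to the DIO_CR_WR arrays than to the other DIO arrays. Its log2 fold change was -0.82 ± 0.24 (unadjusted p 0.0117, limma adjusted p 0.130), a level 0.565 times that of DIO, and -0.37 with slide as a block.

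Psma2 (NM_008944, chr13:14717729-14717788) had the smallest SE of the ring. It stood at 3.59, 3.62 and 3.53 in DIO and at 3.03, 3.01 and 3.10 in DIO_CR_WR. The DIO arrays lay close together across both slides, as did the DIO_CR_WR arrays, all on slide 1, and the groups were far apart. The log2 fold change was -0.53 ± 0.14 (unadjusted p 0.00656, limma adjusted p 0.123), and -0.54 with slide as a block (unadjusted p 0.0236). It was -0.19 with quantile normalization (unadjusted p 0.205) and -0.033 with the spike-ins. With the labelled age as a covariate it was -0.55 (unadjusted p 0.104).

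Psma7 (NM_011969, chr2:179771149-179771208) gave 3.23, 3.61 and 3.60 in DIO and 3.00, 2.86 and 2.97 in DIO_CR_WR, without overlap. Its log2 fold change was -0.54 ± 0.17 (unadjusted p 0.0173), and -0.28 with slide as a block. Psma3 had a log2 fold change of -0.44 ± 0.18, and Psma5, whose groups also did not overlap, -0.46 ± 0.20 with an unadjusted p of 0.0543. The ring was not even: Psma1 had a log2 fold change of -0.0033 ± 0.15 and Psma4 one of 0.12 ± 0.20. The testis-specific Psma8, a dim probe above background on 5 arrays, read -5.58, -4.99 and -4.87 in DIO and -5.02, -5.06 and -4.79 in DIO_CR_WR. DIO array 1 alone was low, so the log2 fold change was 0.19 ± 0.23 over 6 arrays and 0.62 with slide as a block.

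In the beta ring 4 of 7 genes (57.1%, and 21.6% of all genes) were lower: Psmb3, Psmb4, Psmb5 and Psmb7. Psmb5, the subunit with chymotrypsin-like activity (NM_011186, chr14:55232957-55233016), measured 3.29, 3.76 and 3.91 in DIO and 2.92, 2.94 and 3.15 in DIO_CR_WR. All DIO arrays were above all DIO_CR_WR arrays, DIO array 1 by the smallest margin. The log2 fold change was -0.65 ± 0.21 (unadjusted p 0.0174, limma adjusted p 0.135), -0.30 with quantile normalization and -0.29 with slide as a block. A second Psmb5 probe at chr14:55233161-55233220 gave -0.46 ± 0.18.

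Psmb7, the trypsin-like subunit (NM_011187), read 2.46, 2.73 and 2.84 in DIO and 2.17, 2.11 and 2.33 in DIO_CR_WR, without overlap. The log2 fold change was -0.48 ± 0.17 (unadjusted p 0.0272), -0.26 with slide as a block. Psmb6, the caspase-like subunit (NM_008946), read 3.60, 3.66 and 3.85 in DIO and 3.06, 3.52 and 3.71 in DIO_CR_WR, which overlap. One DIO_CR_WR array was far below the rest, and the log2 fold change of -0.28 ± 0.21 had an unadjusted p of 0.233.

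Among the beta subunits without an active site, Psmb4 (NM_008945) read 3.51, 3.93 and 3.76 in DIO and 3.24, 3.06 and 3.22 in DIO_CR_WR, without overlap, for a log2 fold change of -0.56 ± 0.17 (unadjusted p 0.0143). Psmb3 had -0.37 ± 0.15 and Psmb2 -0.21 ± 0.19. Psmb1 stood apart with 0.028 ± 0.20, since its DIO_CR_WR arrays spread from 2.84 to 3.45 around DIO values of 3.13 to 3.22.

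Under interferon the standard active-site subunits are replaced by Psmb8 (for Psmb5), Psmb9 (for Psmb6) and Psmb10 (for Psmb7), which makes the immunoproteasome. Psmb10 read 2.49, 2.50 and 2.80 in DIO and 2.48, 2.45 and 2.28 in DIO_CR_WR, with a log2 fold change of -0.19 ± 0.16. Psmb8 read 2.06, 2.02 and 2.54 against 1.90, 1.86 and 1.74, with -0.38 ± 0.19, and Psmb9 read 1.91, 1.51 and 2.07 against 2.13, 1.99 and 1.53, with 0.051 ± 0.23. Psmb10 and Psmb8 were lower on every DIO_CR_WR array than on any DIO array, narrowly for Psmb10, and Psmb9 overlapped widely. None of these had an unadjusted p under 0.05.

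Set within each array, which removes the scaling by a constant, the log2 ratio of inducible to standard subunit was higher in DIO_CR_WR by 0.28 for Psmb8 over Psmb5, by 0.33 for Psmb9 over Psmb6 and by 0.28 for Psmb10 over Psmb7. The groups overlapped in every pair. The 2-sided exact permutation p was 0.3, 0.5 and 0.3, where 3 arrays against 3 allow no p below 0.1, and the adjusted p over 4 ratios was 0.4, 0.5 and 0.4. On slide 1 alone the differences were 0.061, 0.14 and 0.17. Quantile normalization, which is not a constant for each array, gave 0.10, 0.13 and 0.29, and on slide 1 alone -0.049, 0.040 and 0.19.

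**Figure D3:**
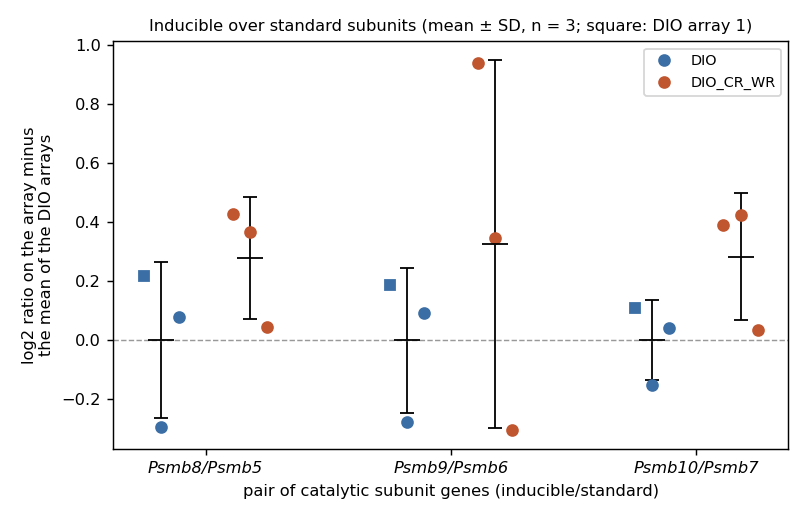
Log2 ratio of each inducible subunit gene to the standard one it replaces, on each array (points; the square is DIO array 1), minus the mean of the DIO arrays. Bars are mean ± SD over 3 arrays. The DIO_CR_WR means sit 0.28 to 0.33 above DIO (0.10 to 0.29 with quantile normalization, not drawn), and the points of both groups overlap in each pair.

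In the 19S particle 7 of 17 genes (41.2%) were lower, against 21.6% of all genes and 37.0% of those with a mean level of at least 3. For 10 (58.8%) every DIO_CR_WR array lay below every DIO array, against 26.5% of all genes. The median log2 fold change was -0.33 (0.17 with the spike-ins, -0.056 with quantile normalization and -0.25 with slide as a block). All 6 ATPases of the base had a log2 fold change below 0, from -0.61 to -0.11. Of these, 4 (66.7%) were lower at an unadjusted p under 0.05: Psmc1, Psmc3, Psmc4 and Psmc6. Psmc1 (NM_008947, chr12:101361283-101361342) measured 3.26, 3.61 and 3.77 in DIO and 2.96, 2.86 and 3.17 in DIO_CR_WR. On this probe the groups did not overlap, with a log2 fold change of -0.55 ± 0.19 (unadjusted p 0.0249) that was -0.27 with slide as a block.

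Psmc4 (NM_011874) gave 3.03, 3.30 and 3.45 against 2.72, 2.67 and 2.89, again without overlap, for -0.50 ± 0.17. Psmc3 had the largest fold change of the ATPases, -0.61 ± 0.24, but DIO array 1 at 3.52 was below DIO_CR_WR array 2 at 3.58. Psmc6 had -0.34 ± 0.14, Psmc2 -0.25 ± 0.18 and Psmc5 -0.11 ± 0.22. The scaffold subunits of the base Psmd1 and Psmd2, which dock ubiquitin receptors and shuttles, had -0.30 ± 0.16 and -0.38 ± 0.15. Psmd4, a ubiquitin receptor, read 2.97, 3.23 and 3.22 in DIO and 2.88, 2.54 and 3.20 in DIO_CR_WR, which overlap, with -0.26 ± 0.21.

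In the lid 2 of 8 genes were lower (25.0%, and 21.6% of all genes), Psmd7 and Psmd12. Psmd7 (NM_010817, chr8:110104402-110104461), which pairs with Psmd14 in the lid, had the smallest unadjusted p of all 44 genes. It read 3.42, 3.61 and 3.81 in DIO and 2.83, 2.75 and 3.04 in DIO_CR_WR, without overlap. The log2 fold change was -0.74 ± 0.17 (unadjusted p 0.00449, limma adjusted p 0.120), or 0.599 times the DIO level. It was -0.41 with quantile normalization, -0.24 with the spike-ins and -0.54 with slide as a block (unadjusted p 0.0460).

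Psmd14, the deubiquitinase (NM_021526, chr2:61599058-61599117), read 1.54, 1.26 and 1.27 in DIO and 1.29, 1.50 and 1.50 in DIO_CR_WR, which overlap. Its log2 fold change was 0.070 ± 0.16. Within arrays, the log2 ratio of Psmd7 to Psmd14 was lower in DIO_CR_WR by a difference of -0.81, without overlap, with an exact permutation p of 0.1, the smallest this design allows, and 0.4 after adjustment over 4 ratios. This pair was chosen after its values were seen, and the difference was -0.43 on slide 1 alone and -0.57 with quantile normalization.

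**Figure D4:**
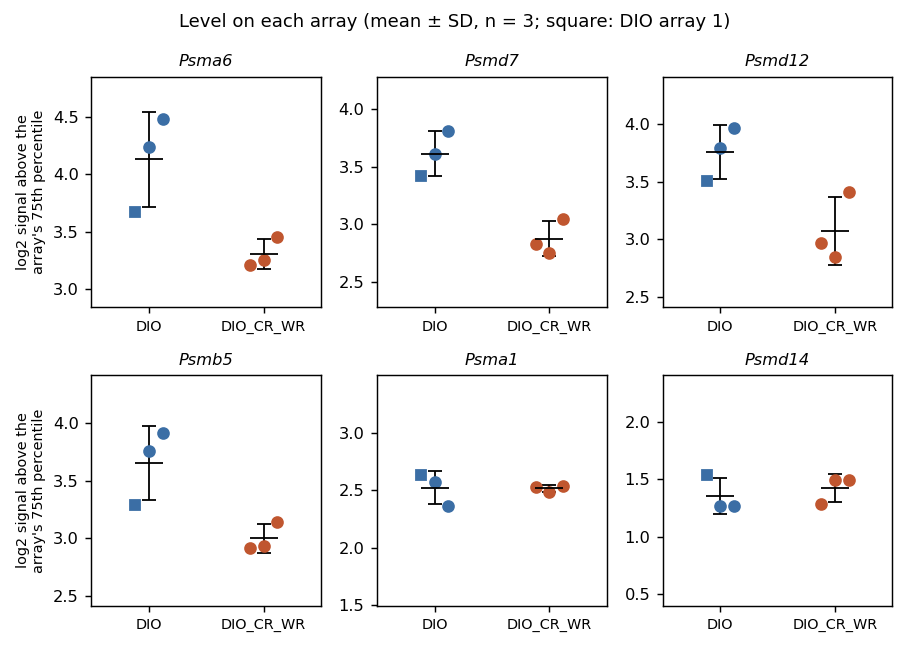
Level (log2 signal above the array's 75th percentile) of 6 proteasome genes on each DIO and DIO_CR_WR array, with mean ± SD of 3 arrays; every panel spans the same log2 range. Psma6, Psmd7, Psmd12 and Psmb5 do not overlap between groups, Psma1 and Psmd14 do, and DIO array 1 (square) is the lowest DIO array of Psma6, Psmd7, Psmd12 and Psmb5.

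Psmd12, a scaffold subunit of the lid, was measured by a pair of probes that did not match each other. The probe used (chr11:107358963-107359022) read 3.51, 3.80 and 3.97 in DIO and 2.97, 2.85 and 3.41 in DIO_CR_WR, for a log2 fold change of -0.68 ± 0.22 (unadjusted p 0.0183). The other probe, further 5′ (spanning chr11:107347092-107347728), read 2.91, 2.52 and 2.08 in DIO and 2.39, 2.46 and 2.74 in DIO_CR_WR, for 0.026 ± 0.25. The 3′ probe had DIO array 1 lowest of its group and the 5′ probe had it highest. With slide as a block the probes came to -0.43 and -0.38. The array's sequences for the pair are shown because the sign of the gene's change over 6 arrays depends on which is read:
Psmd12 5′ probe: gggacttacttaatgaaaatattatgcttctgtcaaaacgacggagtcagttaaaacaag
Psmd12 3′ probe: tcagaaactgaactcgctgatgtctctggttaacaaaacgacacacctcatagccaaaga

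Of the 10 genes with 2 probes, Psma4 was the other whose probes had opposite signs. Its probe used read 3.15, 3.05 and 2.68 in DIO and 2.83, 3.21 and 3.19 in DIO_CR_WR, for 0.12 ± 0.20. The 5′ probe read 2.41, 2.74 and 2.64 against 2.17, 2.14 and 2.62, for -0.29 ± 0.20. Both probes overlapped between groups. The other 8 genes' probes had the same sign and differed by 0.040 to 0.28 on the log2 scale. Some calls among the ATPases still turned on the probe read. In limma's test of every probe, the Psmc1 probe not used gave -0.36 ± 0.22 (unadjusted p 0.148), and its groups overlapped. The Psmc3 probe not used gave -0.33 ± 0.16 (unadjusted p 0.0816). For Psmc2 the probe not used was lower, with -0.40 ± 0.15 (unadjusted p 0.0364), against -0.25 for the probe used. The Psma4 pair on the array is:
Psma4 5′ probe: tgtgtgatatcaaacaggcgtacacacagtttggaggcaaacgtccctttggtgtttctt
Psma4 3′ probe: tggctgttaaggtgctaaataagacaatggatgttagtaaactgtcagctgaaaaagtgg

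The remaining lid genes lay between -0.36 ± 0.17 (Psmd8) and -0.17 ± 0.19 (Psmd11), with Psmd6 at -0.33 ± 0.17, Psmd3 at -0.19 ± 0.16 and Psmd13 at -0.18 ± 0.15. None had an unadjusted p under 0.05. DIO_CR_WR array 3 was the highest of its group for 29 of the 44 proteasome genes and array 2 the lowest for 24.

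**Figure D5:**
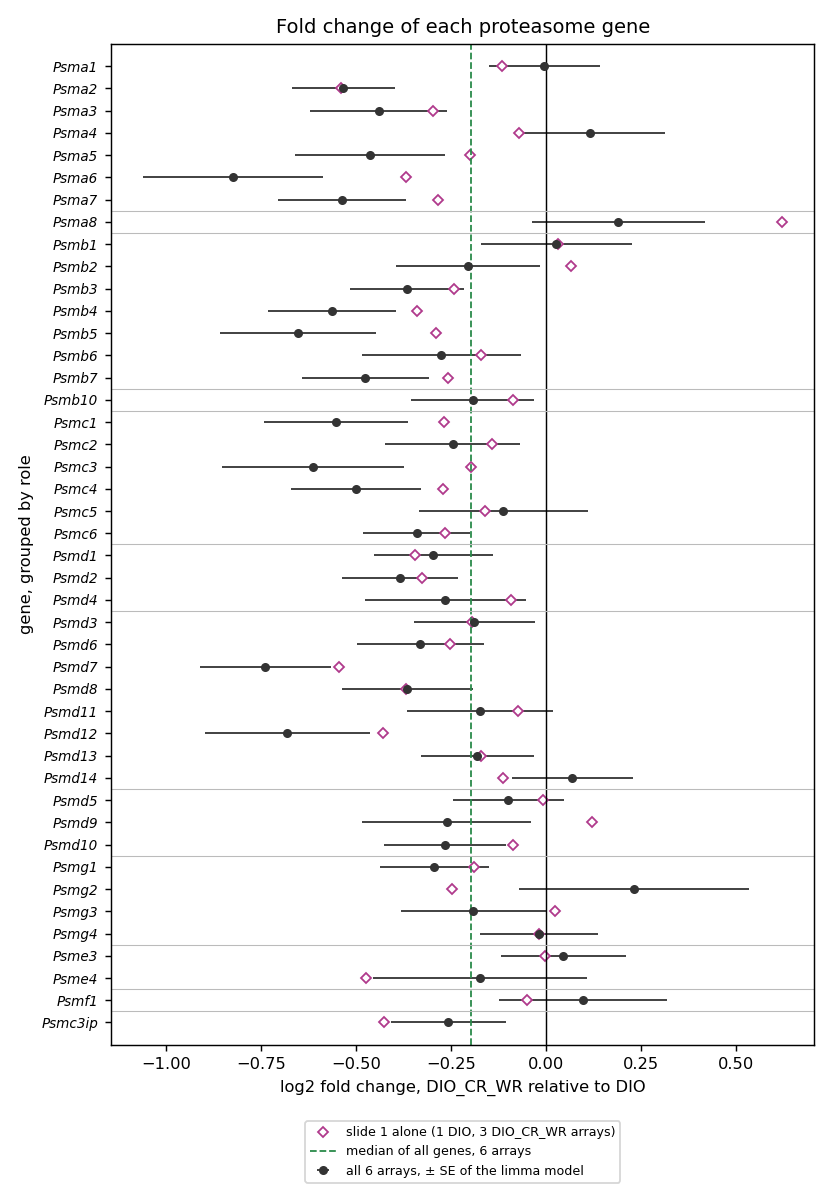
Log2 fold change of each tested proteasome gene, DIO_CR_WR relative to DIO (circles, ± SE of the limma model on 6 arrays), with the value on slide 1 alone (diamonds) and the median of all genes (dashed, -0.20). Most core and 19S genes lie left of the dashed line; for Psma6, Psmb5, Psmc3 and other genes the slide 1 value lies nearer to 0 by more than the SE.

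Neither the assembly chaperones nor the other caps in the family held a gene past the unadjusted threshold. Of the 7 chaperones 0 were lower at an unadjusted p under 0.05, against 21.6% of all genes, and 0 higher, against 5.42%. Their median was -0.19, and their fold changes lay between -0.29 and 0.23. Psmd5, Psmd9 and Psmd10, which assemble the base, had -0.099 ± 0.15, -0.26 ± 0.22 and -0.26 ± 0.16. Of those that assemble the core, Psmg1 had -0.29 ± 0.14, Psmg3 -0.19 ± 0.19 and Psmg4 -0.017 ± 0.16. Psmg2 read 0.95, 0.66 and -0.20 in DIO and 0.70, 0.65 and 0.76 in DIO_CR_WR, so its 0.23 ± 0.30 came with 1 low DIO array, and it was -0.25 with slide as a block.

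The activators Psme3 (the nuclear cap PA28 gamma) and Psme4 (the cap PA200) and the regulator Psmf1 (the inhibitor PI31) had log2 fold changes of 0.047 ± 0.16, -0.17 ± 0.28 and 0.098 ± 0.22, and 0 of 3 had an unadjusted p under 0.05. Psme3 read 1.71, 1.80 and 1.48 in DIO and 1.70, 1.58 and 1.85 in DIO_CR_WR. Psme4 read 2.05, 1.97 and 1.23 against 1.38, 1.41 and 1.94, and Psmf1 0.99, 1.12 and 0.41 against 1.04, 0.94 and 0.84. All 3 overlapped between groups, and DIO array 3 was the lowest of all arrays for each. The interferon-induced caps were split: Psme2 (PA28 beta) was lower, with 3.34, 3.41 and 3.53 in DIO against 3.09, 2.98 and 2.90 and -0.44 ± 0.15 (unadjusted p 0.0221), and its partner Psme1 (PA28 alpha) was at 0.041 ± 0.17. The Psme2 call was lost with the mean of its probes (-0.15, unadjusted p 0.348), with quantile normalization (-0.093) and with slide as a block (-0.35, unadjusted p 0.110). Psmc3ip, which is no subunit, had -0.26 ± 0.15.

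The 250 bases upstream of the start of transcription were read from RefSeq (GRCm38.p6), which held a promoter for 37 of the 45 genes. The letters TGACNNNGC on either strand, the core of the antioxidant response element that Nfe2l1 and Nfe2l2 bind, were found in 5 of the 37 (13.5%) and in 11.5% of all genes with a promoter. CCAAT was found in 37.8% against 37.5%, and the E-box CACGTG in 10.8% against 6.86%. The letters CCGGAAG, a site of ETS factors, were in 13 of the 37 (35.1%) and in 7.83% of all genes. Those 13 were Psma6, Psmc1, Psmc2, Psmc3ip, Psmc6, Psmd2, Psmd4, Psmd6, Psmd11, Psmd12, Psme3, Psme4 and Psmg1, which include genes that were lower and genes that were not. A match describes the letters in the window and is no evidence of binding.

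The 5 windows with an antioxidant response element core are printed because they belong to an active-site gene that was lower (Psmb5), one that was not (Psmb6), an ATPase (Psmc6), a chaperone (Psmd9) and the lid gene Psmd12. Each runs 5′ to 3′ on the gene's strand up to the base before the start, and capitals mark the antioxidant response element core and, in Psmc6 and Psmd12, also the ETS letters. The windows are chr14:54617996-54618245 (Psmb5, minus strand), chr11:70525107-70525356 (Psmb6, plus), chr14:45329574-45329823 (Psmc6, plus), chr5:123227940-123228189 (Psmd9, plus) and chr11:107479278-107479527 (Psmd12, plus).
Psmb5: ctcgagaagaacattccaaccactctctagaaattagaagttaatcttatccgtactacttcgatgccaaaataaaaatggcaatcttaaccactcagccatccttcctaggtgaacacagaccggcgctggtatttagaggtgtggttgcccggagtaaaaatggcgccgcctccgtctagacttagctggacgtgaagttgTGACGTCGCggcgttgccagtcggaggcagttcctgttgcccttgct
Psmb6: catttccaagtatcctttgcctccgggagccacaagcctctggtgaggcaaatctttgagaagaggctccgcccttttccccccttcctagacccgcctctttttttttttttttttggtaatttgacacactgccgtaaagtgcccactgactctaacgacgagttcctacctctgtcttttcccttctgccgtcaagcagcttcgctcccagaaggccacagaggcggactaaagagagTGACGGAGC
Psmc6: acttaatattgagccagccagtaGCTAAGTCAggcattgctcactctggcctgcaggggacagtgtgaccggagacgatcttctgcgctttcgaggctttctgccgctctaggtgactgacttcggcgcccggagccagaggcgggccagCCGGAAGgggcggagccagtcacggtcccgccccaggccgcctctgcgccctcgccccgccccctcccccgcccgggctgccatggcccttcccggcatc
Psmd9: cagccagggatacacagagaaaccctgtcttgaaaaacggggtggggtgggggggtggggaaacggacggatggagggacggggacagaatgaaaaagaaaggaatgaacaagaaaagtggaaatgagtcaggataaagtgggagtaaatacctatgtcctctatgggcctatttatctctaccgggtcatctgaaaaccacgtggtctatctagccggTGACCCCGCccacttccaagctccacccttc
Psmd12: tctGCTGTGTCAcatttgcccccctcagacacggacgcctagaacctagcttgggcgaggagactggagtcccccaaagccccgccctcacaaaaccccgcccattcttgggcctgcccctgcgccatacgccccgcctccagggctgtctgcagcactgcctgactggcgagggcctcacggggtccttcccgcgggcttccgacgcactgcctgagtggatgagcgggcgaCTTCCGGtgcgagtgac
In Psmb5 the element lies 47 bases from the start and in Psmb6 9, in Psmd9 31, and in Psmc6 and Psmd12, where it is on the other strand, 227 and 247. The overlap of these windows with the direction of change was not tested.

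Among 22 regulators and shuttles of the proteasome, 2 were lower at an unadjusted p under 0.05 (9.09%, and 21.6% of all genes). Another 2 were higher (9.09%, and 5.42% of all genes). Their median was -0.15, and that of all genes -0.20. Vcp, the ATPase that extracts ubiquitinated proteins, read 3.54, 3.49 and 3.19 in DIO and 2.90, 2.76 and 2.96 in DIO_CR_WR, for -0.54 ± 0.16 (unadjusted p 0.0157) and -0.67 with slide as a block, but -0.23 with quantile normalization (unadjusted p 0.239) and -0.036 with the spike-ins (unadjusted p 0.894). Nfe2l1 read 0.67, 0.79 and 0.88 against 0.39, 0.40 and 0.49, for -0.35 ± 0.14 (unadjusted p 0.0457), -0.24 with slide as a block and 0.15 with the spike-ins. Neither gene overlapped between groups.

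Txnl1, a thioredoxin bound to the 19S particle, was higher on every DIO_CR_WR array. It read -1.86, -1.77 and -2.18 in DIO and -1.52, -1.25 and -1.38 in DIO_CR_WR, for 0.55 ± 0.18 (unadjusted p 0.0184). The log2 fold change was 0.58 with quantile normalization (unadjusted p 0.0172), 1.05 with the spike-ins (unadjusted p 0.00345) and 0.47 with slide as a block. The slide block lost the Txnl1 call (unadjusted p 0.105). So did adding labelled age to the model (0.69, unadjusted p 0.122) and leaving out DIO_CR_WR array 2 (0.49, unadjusted p 0.066). Akirin2, which carries proteasomes into the nucleus, read 2.16, 1.36 and 0.81 in DIO and 2.15, 2.33 and 2.34 in DIO_CR_WR. Its 0.83 ± 0.34 (unadjusted p 0.0471) rested on the DIO arrays of slide 2, and with slide as a block it was 0.11. The core chaperone Pomp had -0.10 ± 0.18, the ubiquitin receptor Adrm1 -0.41 ± 0.18 and the deubiquitinase Usp14 -0.34 ± 0.15, none with an unadjusted p under 0.05.

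Of 10 genes for ubiquitin and its activating E1 enzymes, 1 was lower (10%, and 21.6% of all genes) and 1 higher (10%, and 5.42%). Ubb, a gene for chains of ubiquitin, read 4.98, 6.06 and 6.24 in DIO and 4.43, 4.69 and 4.65 in DIO_CR_WR. DIO array 1 lay nearer to the DIO_CR_WR arrays than to the other DIO arrays, and the log2 fold change of -1.17 ± 0.34 (unadjusted p 0.0128) became -0.39 with slide as a block. Rps27a, which codes for ubiquitin fused to a ribosomal protein, had -0.31 ± 0.17, but -0.65 (unadjusted p 0.0052) with the mean of its probes, which would make it a further lower gene. Uba6, an E1 enzyme, was the higher one, with 0.61 ± 0.24 (unadjusted p 0.0414) and 0.34 with slide as a block. Of 30 ubiquitin E2 genes tested, 4 were lower (13.3%, and 21.6% of all genes) and 0 higher (5.42% of all genes), with a median of -0.16.

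Other large complexes served as a scale for the proteasome counts. Of 8 genes of the CCT chaperonin 2 were lower (25.0%, and 21.6% of all genes), with a median of -0.23. Cytosolic ribosomal proteins had 32 of 80 lower (40.0%) and a median of -0.42. Respiratory complex I had 24 of 37 lower (64.9%) and a median of -0.46. Each had 0 higher. With this scaling, the proteasome's 15 of 44 with -0.26 lay between the chaperonin and the ribosome. Quantile normalization gave medians of 0.017 for the chaperonin, -0.061 for the ribosome, -0.063 for the proteasome and -0.17 for complex I. There the proteasome no longer lay between the chaperonin and the ribosome. No difference between these lists was tested.

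Many proteasome probes are bright, and the share of lower genes differed with brightness, though not in 1 direction. It was 22.9% among the dimmest genes, those with a mean level below 0, 12.3% from 0 to 1 and 14.7% from 1 to 2. Among all 1691 genes with a mean level of at least 3 (log2 above the 75th percentile), 37.0% were lower and the median log2 fold change was -0.36. Of the proteasome genes 21 lay there, 11 of them lower, with a median of -0.46. Between 2 and 3 all genes had 23.1% lower and a median of -0.24, and 9 proteasome genes had 3 lower and a median of -0.30. Below a level of 2 stood 14 proteasome genes, 1 of them lower (7.14%), against 20.3% of all genes there. The part of brightness in the family's shift was not tested beyond these values.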

How the data were processed

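Inguinal fat RNA of 6 mouse samples was measured on 6 arrays of Agilent design 028005. The deposited intensity values are the authors' Feature Extraction signals per spot, background-subtracted and not normalized between arrays, per the file headers, which give version 10.7.3.1 (10.7.1.1 in the submitters' processing notes). Per the file headers, 0 or 1 in other deposited columns marks spots that are well above background, saturated or outliers; 0 spots were saturated. The series table's 18 value columns were not used, because their names do not match the sample titles.

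Computed here, in R 4.3.3 with limma 3.58.1: 3671 control spots were dropped, outlier spots were treated as missing (which left out 334 probes), and the log2 processed signal was reduced by each array's 75th percentile. Probes well above background on at least 3 arrays were kept (38791), and the brightest probe stood for each gene name (26177). DIO_CR_WR was tested against DIO with limma's two-sided moderated test, adjusted over all genes at 0.05. The code was tested on simulated data. The number of arrays limits the precision.

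The members, their roles and all gene lists were chosen with earlier results of these data known. Members with the smallest unadjusted p (10 lower, 3 higher) and a preset few were described in full, and the rest are named to account for every member. Results of 2 other genes that the rules picked are not reported here; they stay in all tests and counts. Alternatives were normexp (offset 50) with quantile normalization, quantile normalization alone, median and spike-in scaling (8 of 10 E1A probes), no or a stricter filter, all or averaged probes, another variance model, replicate, slide or age terms, slide 1 alone, an adjusted p under 0.1 and leaving out each array; within-array ratios were added after seeing the data. Same-numbered arrays correlated at -0.01, -0.12 and -0.24, and were not treated as pairs. Slides come from the file headers.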

Additional observations from a re-analysis of the deposited data

How the results depend on the processing

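The count of genes past the adjusted threshold was 0, and 7 with spike-in scaling, 63 with signal on all 6 arrays, 26 with a trended and robust variance and 0 to 4057 on leaving out an array. The 15 lower proteasome genes became 2 with quantile normalization with or without normexp, 9 with median centring, 0 with spike-in scaling, 2 with slide as a block, 1 on slide 1 alone and 3 to 17 on leaving out an array. All genes had 21.6% lower, and 14.1%, 15.4% (with normexp), 15.2%, 2.95%, 5.88%, 5.05% and 9.15% to 28.7% in these settings. The count of higher ones was 1 (2.27%) with spike-in scaling, with slide as a block and on slide 1 alone, and 0 on leaving out any array. All genes had 21.0%, 4.66%, 5.49% and 3.09% to 8.73% higher in these settings. The median less that of all genes was 0.012 with quantile normalization with or without normexp, -0.17 with no filter, -0.13 with signal on all 6 arrays and -0.13 to -0.044 on leaving out an array. With the replicate number as a block, 11 proteasome genes were lower (25%, and 18.8% of all genes), and 0 genes passed the adjusted threshold. Nfe2l1, Akirin2 and Psme2 then lost an unadjusted p under 0.05 (0.0948, 0.0657 and 0.0664). The replicate numbers do not pair the samples.

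Of 38 single genes and ratios named, 18 kept their direction under every alternative run. They include the 9 lower members Psmd7, Psma2, Psma6, Psmb4, Psma7, Psmb5, Psmd12, Psmc1 and Psmc4, which were named for their small unadjusted p. Only the sign was kept: with spike-in scaling 0 proteasome genes were lower at an unadjusted p under 0.05. There Psmc4 was at -6.7e-05, Psma2 at -0.033, Psma7 at -0.037, Psmc1 at -0.053 and Psmb4 at -0.064. The share of all genes that kept their direction was not computed. The cause of the reversals was not tested. Log2 fold changes reversed with spike-in scaling were Psmb7 0.024, Psmb6 0.22, Psmb10 0.31, Psmd4 0.23, Psme4 0.33, Nfe2l1 0.15, Rps27a 0.19, Pomp 0.40, Adrm1 0.092, Usp14 0.16, Psmb8 0.12 and Psme2 0.063. With quantile normalization they were Psmb6 0.082, Psmb10 0.046, Psmd4 0.034, Rps27a 0.043 and Pomp 0.16, with normexp before it 0.096, 0.042, 0.027, 0.0024 and 0.14, and with median centring Pomp 0.013. With slide as a block and on slide 1 alone alike they were Psmg2 -0.25, Psma4 -0.070, Psmd14 -0.11, Psme3 -0.0020, Psmf1 -0.050, Psmb9 -0.031 and Psme1 -0.17. Age as a covariate reversed Psma8 to -0.52 and Psme4 to 0.017, and the mean of its probes Psma4 to -0.086. Leaving out an array gave ranges of -0.025 to 0.33 for Psma8, -0.10 to 0.47 for Psmg2, -0.021 to 0.24 for Psma4, -0.047 to 0.12 for Psme3, -0.12 to 0.24 for Psmf1, -0.20 to 0.046 for Pomp, -0.11 to 0.23 for Psmb9 and -0.095 to 0.15 for Psme1. Signal over background limits Psma8 and Psmb11.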
